A study of Mus musculus with 7 samples.

Results

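Matrix metalloproteinases (MMPs) and their tissue inhibitors (TIMPs) were examined as a family of 10 genes, 7 MMPs (Mmp2, Mmp3, Mmp9, Mmp11, Mmp12, Mmp13 and Mmp14) and 3 inhibitors (Timp1, Timp2 and Timp3). They were chosen by symbol, with earlier results of these data known. Of the 34945 probe sets that name a single gene, 22 belonged to them, out of 18193 genes in all. The samples were mammary glands of virgin female mice of the FVB/PyV-Mt strain, 8 weeks old, all carrying PyV-MT, the middle T antigen of polyoma virus, a transgene under which mammary tumours form. From 4 weeks of age the CLA group had eaten chow with 1% conjugated linoleic acid (CLA), a set of linoleic acid isomers with conjugated double bonds, and the control group a control AIN93G chow, each for 4 weeks. The study placed 6 mice on CLA and 5 on control chow, of which 4 CLA and 3 control glands are compared here, 1 Affymetrix array each.

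MMPs are zinc-dependent proteases that cut collagens, laminins, proteoglycans and other parts of the extracellular matrix. Most are secreted as inactive proenzymes, and TIMPs block the active enzymes by binding their catalytic site. In the mammary gland MMPs are known for branching of the ducts, for regression after lactation and for remodelling of the matrix around tumours, and much of their transcript comes from fibroblasts and leukocytes of the stroma.

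The promoters of 8 of the 10 members (all but Mmp2 and Mmp9) were found in the RefSeq table of assembly GRCm38.p6, in 9 windows of 300 bases (250 before the annotated start, 50 after). Mmp13, Mmp12 and Mmp3 belong to a cluster of MMP genes on one chromosome, and each had a window with the AP-1 motif TGANTCA, read on both strands and identical on each. This motif stood in 3 of the 9 member windows and in 7.81% of all 32851 windows. The TATA-box letters TATAAA, searched on both strands, stood in the same 3 windows and in 13.6% of all windows. Counted from the annotated start, their first letter was at position -16 for Mmp13 and -7 for Mmp3, but for Mmp12 at position 5 after the start, outside the bases printed here. The 150 bases before the start are printed for these 3 genes of the cluster, and for Timp2 and Timp3 because their signals separated the groups. Capitals mark the AP-1 motif, which began 35 bases before the start of Mmp13, 46 before that of Mmp3 and 44 before the second annotated start of Mmp12.
Mmp13 (chr9:7272364-7272513, plus strand): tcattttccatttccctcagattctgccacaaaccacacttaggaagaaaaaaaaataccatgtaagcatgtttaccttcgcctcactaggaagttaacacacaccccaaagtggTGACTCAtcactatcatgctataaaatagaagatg
Mmp3 (chr9:7445672-7445821, plus strand): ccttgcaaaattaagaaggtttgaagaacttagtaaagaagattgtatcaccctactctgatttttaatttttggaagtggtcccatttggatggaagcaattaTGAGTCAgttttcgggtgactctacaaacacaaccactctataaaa
Mmp12 (chr9:7347224-7347373, plus strand): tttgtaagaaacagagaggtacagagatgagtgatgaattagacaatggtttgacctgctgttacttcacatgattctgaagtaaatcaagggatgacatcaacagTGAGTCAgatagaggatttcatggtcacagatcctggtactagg
Timp2 (chr11:118355412-118355561, minus strand): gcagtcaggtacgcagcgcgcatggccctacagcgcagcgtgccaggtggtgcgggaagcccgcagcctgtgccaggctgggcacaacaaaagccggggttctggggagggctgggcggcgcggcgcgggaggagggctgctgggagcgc
Timp3 (chr10:86300262-86300411, plus strand): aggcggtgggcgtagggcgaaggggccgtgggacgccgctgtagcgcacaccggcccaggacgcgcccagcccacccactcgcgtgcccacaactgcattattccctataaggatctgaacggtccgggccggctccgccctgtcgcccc
The Timp2 and Timp3 windows held neither motif and had a GC content of 68.7% and 67.0%, against 43.7% for Mmp13, 40% for Mmp3, 40.7% for this Mmp12 window and a median of 52.7% over all windows. Neither motif stood in the remaining member windows either. Their GC content was 67% for Mmp11, 56% for Mmp14, 55% for Timp1 and 38.7% for the first Mmp12 window.

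The values were MAS5 signals on a linear scale, with a trimmed mean of 500.003 on every array. Luminal epithelial markers were above the signal filter of 57.7 in 9 of 9 genes with a probe set, and their summed signal spanned 97436 to 105874 in CLA glands and 90941 to 113290 in control glands. White adipocyte markers summed to between 17634 and 39685 in CLA glands and between 50429.9 and 61384 in control glands, without overlap. Basal and myoepithelial markers, all 8 above the filter, also separated the groups, with sums between 7636 and 9761 in CLA glands and between 4298 and 7581 in control glands. Of these 8 markers, 5 had a positive and 3 a negative log2 change, with a median of 0.63 and a lowest value of -0.59. At an unadjusted p under 0.05, 3 of the 8 (the keratin genes Krt5, Krt14 and Krt17) were higher and 0 lower. Their sums were thus higher in CLA glands, as were the mean signals of Timp2, Timp3 and most MMPs, and their part in those values was not tested. Skeletal muscle markers summed to between 702 and 15946 in CLA glands and between 10920.3 and 101831 in control glands. The sums overlapped, but all 12 markers were lower in CLA at limma's unadjusted p under 0.05, as 3.01% of all genes were. Their median log2 change was -3.96. The ratio of 3′ to 5′ signal on the array's own Actb control probes, used to follow RNA integrity, was 2.78 on CLA replicate 3 and 1.41 to 1.88 on the others, the second highest being that of control replicate 2. Array titles carry experiment numbers that start with 27 (CLA replicate 1 and control replicate 1) or 28 (the others), here called the 27 and 28 arrays, and the sources used here do not say what these numbers mean. Few arrays limit the precision of every value, and in bulk tissue fewer cells of a type and less RNA per cell cannot be told apart.

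Most members had a somewhat higher average signal in CLA than in control glands, but no difference passed the test over all genes. Each gene is represented by its brightest probe set. On these, 9 members passed the filter and all 9 of them had a positive log2 change, CLA minus control, with a median of 0.46, beside 0.03 over all 12497 genes tested, of which 55.3% were positive. The remaining member, Mmp9, fell below the filter. The filter used the mean over all 7 arrays, 4 of them CLA, so it is not independent of diet. Mmp13 passed with a mean log2 signal of 6.75 in CLA and 5.73 in control glands, beside a cut of 5.85. Mmp9, with a negative change, had 4.99 in CLA and 6.48 in control glands. The count of positive members and their median thus depend in part on the filter. They also depend on which genes were made members, a choice made with earlier results of these data known. The 5 other MMPs tested had a median log2 change of -0.26, with 4 of them negative. Limma called 0 of the 9 members at an adjusted p under 0.05, as it called 0% of all genes, and the members' adjusted p lay between 0.670 and 0.999. At an unadjusted p under 0.05, 3 members (Timp2, Timp3 and Mmp12) were higher and 0 lower, where 2.38% of all genes were higher and 3.01% lower, 5.39% in all. The groups did not overlap for 2 members, Timp2 and Timp3, both higher in CLA, as they did not for 2.64% of genes in that direction and 2.67% in the other. For both, the brightest probe set was chosen over all 7 arrays, 4 of them CLA. In control glands alone another probe set of each was brighter, and on it the groups overlapped. These counts thus depend on that choice too. Over all 22 probe sets of the members, read from the fit of every probe set, 4 were higher and 1 lower at an unadjusted p under 0.05, where 1.97% and 2.97% of all probe sets were, and 0 passed after adjustment. The groups separated on 2 of the 22 with higher CLA signal, beside 2.24% of all probe sets, and on 1 with lower.

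**Figure D1:**
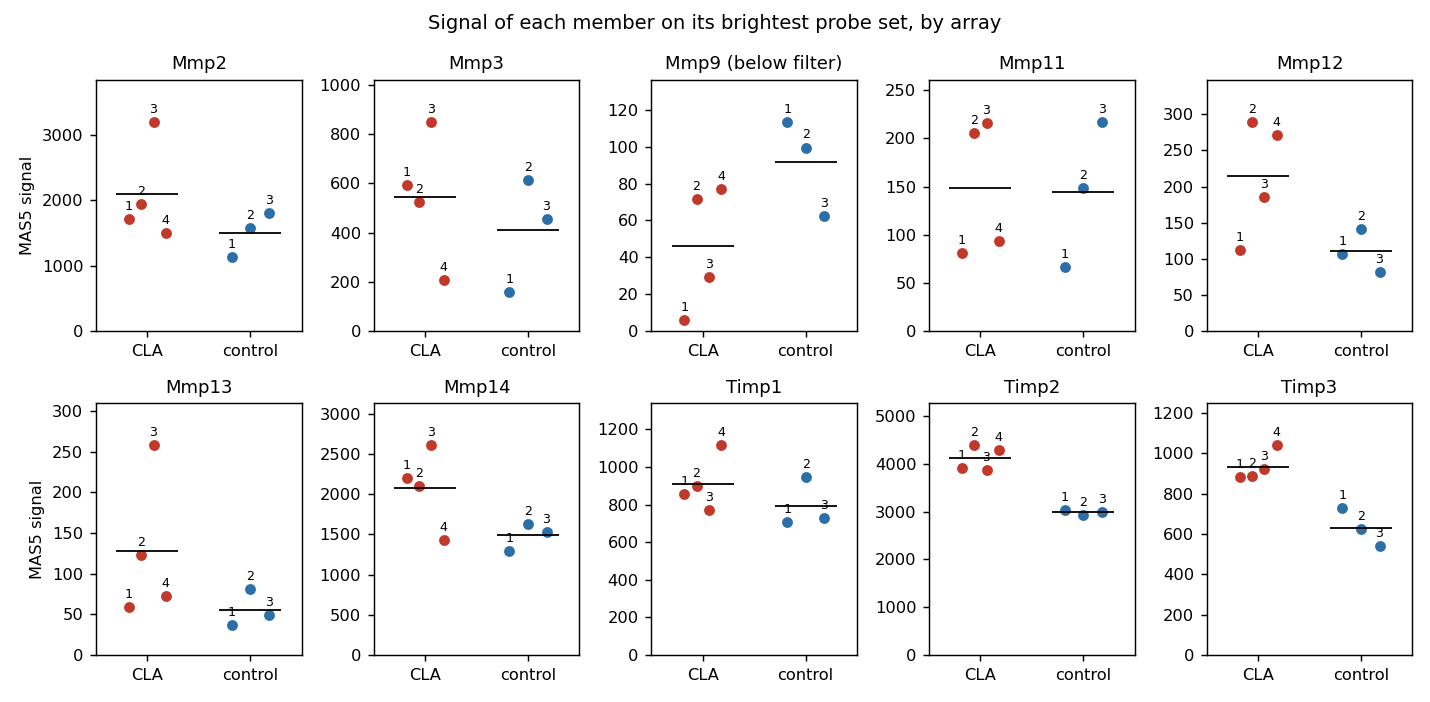
MAS5 signal (linear, axes from 0) of each member on its brightest probe set, 1 point per array, CLA glands left and control glands right; the number is the replicate and the bar the mean. Timp2 and Timp3 are the members whose 4 CLA points all lie above the 3 control points.

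Timp2 encodes the inhibitor that also helps membrane-bound Mmp14 to activate pro-Mmp2, and it had the smallest p of the family. On its brightest probe set, 1460287_at, its signal was 3920.2, 4389, 3870.0 and 4300.1 on CLA replicates 1 to 4, against 3041, 2927 and 2994.5 on control replicates 1 to 3. All 4 CLA glands were thus above all 3 control glands, and the control values lay close together, with a mean of 2987 ± 57.3 (SD, n = 3) beside 4120 ± 263 (SD, n = 4) in CLA glands. The log2 change was 0.46 ± 0.11 (SE), with a 95% interval from 0.21 to 0.72, or 1.38-fold, at limma's unadjusted p of 0.00258 and adjusted p of 0.670. Between the 27 arrays, 1 per group, the change was 0.37, and among the 28 arrays 0.50.

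The other probe sets of Timp2 did not repeat this separation. Of the 6, 4 had a positive and 2 a negative log2 change. Probe set 1454677_at had 3276, 3916, 4400.4 and 3272 in CLA glands, against 2765, 3675 and 3453 in control glands, a log2 change of 0.17 ± 0.16 (SE). Probe set 1433662_s_at spanned 1465 to 2030.5 in CLA glands and 1379 to 1926 in control glands, with a log2 change of -0.01 ± 0.17. Both share an accession in the annotation, and on both the groups overlapped. The 3 probe sets of accession M93954 include the brightest one, and its other members, 1450040_at and 1420924_at, had log2 changes of 0.34 ± 0.19 and 0.69 ± 0.51 with overlapping groups. In control glands alone 1454677_at was the brighter, with a mean log2 signal of 11.68 beside 11.54 for 1460287_at. The brightest was chosen over all 7 arrays, 4 of them CLA, so that choice is not independent of diet.

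One Timp2 probe set went the other way. Probe set 1437081_at, for which the annotation gives no accession, had signals of 6.49, 1.56, 3.78 and 3.21 in CLA glands, against 11.8, 44.2 and 32.9 in control glands. These lie below the filter signal of 57.7, so their size is uncertain, but the groups did not overlap, and the log2 change was -2.95 ± 0.79 (SE) at limma's unadjusted p of 0.00399 and adjusted p of 0.878 over all probe sets. Among all probe sets, 3.21% separated the groups with lower CLA signal. The mean over all 6 probe sets of Timp2, this dim one included, had a log2 change of -0.22.

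Timp3 encodes the inhibitor that stays bound to the matrix and also blocks several ADAM proteases. Its brightest probe set, 1449335_at, had 883, 886, 923 and 1039 in CLA glands, against 726, 623 and 542 in control glands. Again the lowest CLA gland was above the highest control gland. Timp3 had a log2 change of 0.57 ± 0.16 (SE), with a 95% interval from 0.22 to 0.93, or 1.49-fold, at limma's unadjusted p of 0.00496 and adjusted p of 0.688. Between the 27 arrays it was 0.28 and among the 28 arrays 0.70.

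All 4 Timp3 probe sets carry the same accession and had positive changes, but the brightest alone separated the groups. Probe set 1419089_at had 884, 889, 711 and 790.1 in CLA glands, against 1045, 582 and 664 in control glands, with the highest value in a control gland. Its log2 change was 0.14 ± 0.21 (SE). In control glands its mean log2 signal, 9.53, was above the 9.29 of 1449335_at, so here too the choice of the brightest depended on the CLA glands. Probe sets 1449334_at and 1419088_at had 0.53 ± 0.72 and 0.47 ± 0.39, and the first of them ran from 58.1 on CLA replicate 3 to 501 on CLA replicate 2.

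**Figure D2:**
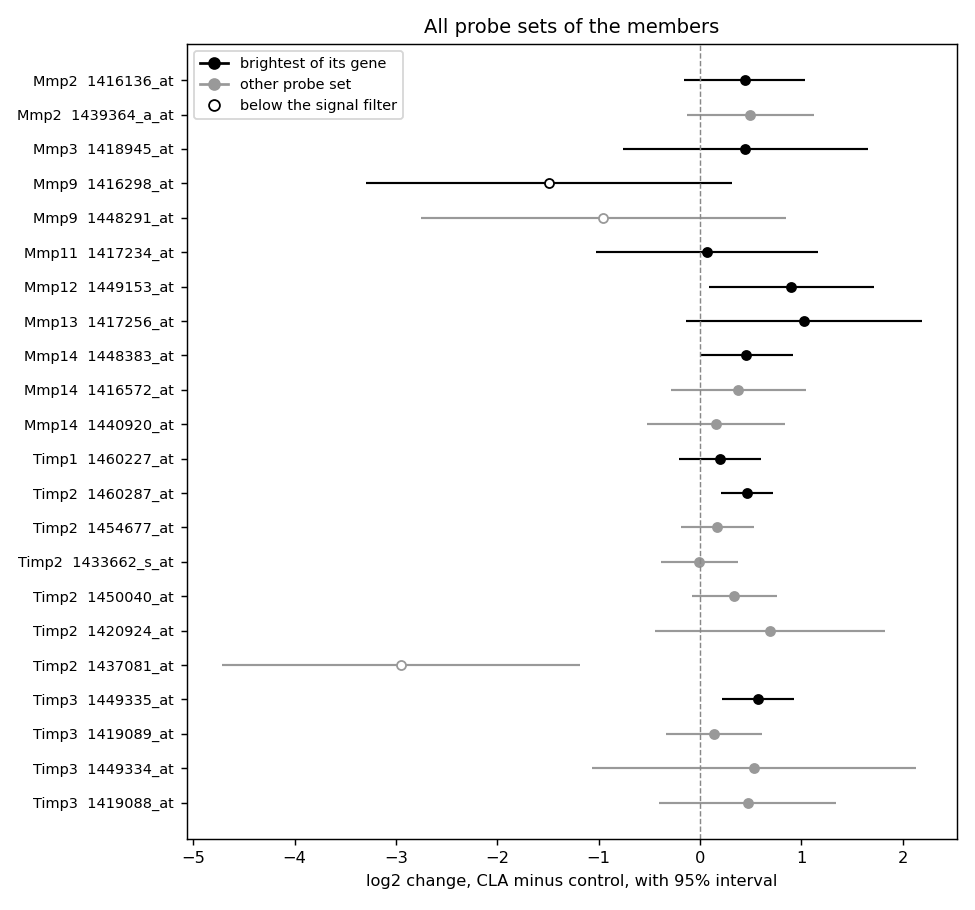
Log2 change, CLA minus control, of all 22 probe sets (points) with limma's 95% intervals (lines); black marks the brightest of a gene, grey its others, and open points lie below the signal filter. The intervals of the brightest Timp2, Timp3 and Mmp12 probe sets lie above 0, and that of the dim Timp2 probe set 1437081_at lies below it.

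The probe sets of one gene differed from each other by amounts that varied from array to array. For 4 of the 12 probe sets other than the brightest, singled out after their values were seen, the log2 difference from the brightest was most negative on CLA replicate 3 and next most negative on control replicate 2, the arrays with the highest and second highest Actb ratio. They were Mmp14 1416572_at, Timp2 1420924_at, and Timp3 1449334_at and 1419088_at. For Timp2 1420924_at the difference was -2.63, -2.83, -4.60 and -3.12 on CLA replicates 1 to 4, against -2.77, -4.30 and -3.52 on control replicates 1 to 3. For Timp3 1449334_at it was -0.92, -0.82, -3.99 and -2.21 in CLA glands, against -1.11, -2.74 and -1.99 in control glands. Each group thus held 1 array where these probe sets were dim beside the brightest one.

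These 4 were picked for being dim on the arrays of highest Actb ratio, so a larger change with that ratio as a covariate, or without CLA replicate 3, can follow from the choice and is given as a description. With the log2 ratio as a covariate their log2 change became 1.00 ± 0.23 (SE) for Timp2 1420924_at, 0.96 ± 0.35 for Timp3 1449334_at, 0.68 ± 0.25 for Timp3 1419088_at and 0.54 ± 0.19 for Mmp14 1416572_at. Their values with CLA replicate 3 left out were 1.16 ± 0.36, 1.21 ± 0.49, 0.77 ± 0.33 and 0.64 ± 0.22. The brightest Timp2 and Timp3 probe sets had 0.47 ± 0.12 and 0.58 ± 0.16 with the covariate. Of the other probe sets, some had larger and some smaller changes in that fit than without the covariate. Among the larger were Timp3 1419089_at (0.21 ± 0.19), Timp2 1450040_at (0.39 ± 0.17) and Timp1 (0.21 ± 0.18). Below the filter, Mmp9 1416298_at (-1.57 ± 0.85) and Timp2 1437081_at (-3.01 ± 0.85) were larger in size too. Among the smaller, the 2 of Mmp2 had 0.31 ± 0.17 and 0.34 ± 0.14, that of Mmp3 0.26 ± 0.47 and that of Mmp13 0.74 ± 0.34. Mmp14 1440920_at had 0.036 ± 0.25 and Timp2 1454677_at 0.11 ± 0.13, while Mmp11 changed sign, to -0.12 ± 0.43. No member probe set passed an adjusted p of 0.05 in either fit, both of which were chosen after seeing the data.

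**Figure D3:**
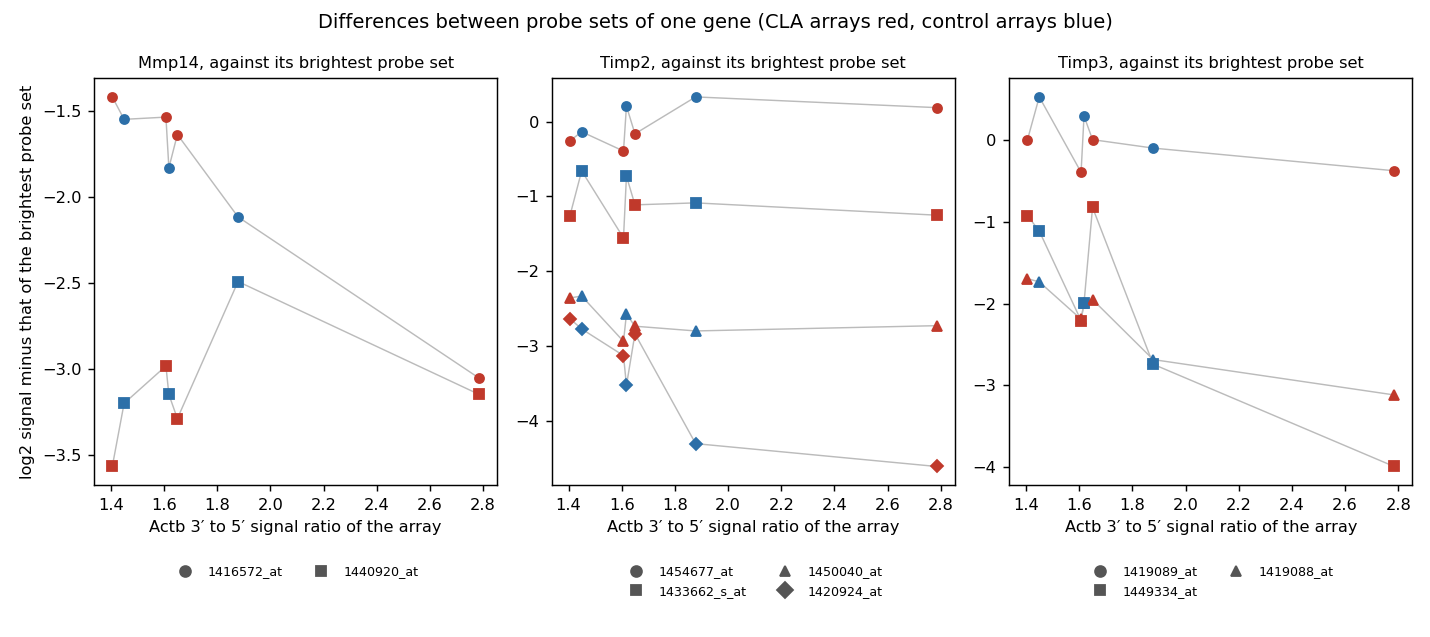
Log2 signal of each other probe set minus that of the brightest of its gene (vertical) against the Actb 3′ to 5′ signal ratio of the array (horizontal), CLA arrays in red and control arrays in blue, lines joining the arrays of 1 probe set; Mmp2 and probe sets below the filter are not drawn. Mmp14 1416572_at, Timp2 1420924_at and the Timp3 probe sets 1449334_at and 1419088_at lie lowest on the array with the ratio of 2.78.

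Timp1, the secreted inhibitor that is inducible by cytokines and growth factors, differed less. Its only probe set had 857, 899, 769 and 1115 in CLA glands, against 707, 949 and 728 in control glands. The groups overlapped, with 1 CLA gland above all control glands. The change came to 0.20 ± 0.18 (SE) on the log2 scale (95% interval -0.21 to 0.60), at limma's adjusted p of 0.979. It was 0.09 without CLA replicate 4, the highest gland, 0.12 without control replicate 1 and 0.33 without control replicate 2. With the white adipocyte score as a covariate, a score that nearly followed diet, it was 0.75 ± 0.33, at limma's unadjusted p of 0.0492 and adjusted p of 0.831.

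Mmp14, the membrane-anchored collagenase that activates pro-Mmp2, had 2198, 2099, 2607 and 1426 in CLA glands on its brightest probe set, against 1296, 1633 and 1532 in control glands. CLA replicates 1 to 3 lay above all control glands, while CLA replicate 4 lay within their range. Mmp14 had a log2 change of 0.46 ± 0.20 (SE), 1.37-fold, with limma's unadjusted p at 0.0501 and adjusted p at 0.904. The other probe sets had 0.38 ± 0.30 and 0.16 ± 0.31. Fibroblast markers, all 10 above the filter, summed to 29527, 17847, 31958 and 25769.7 in CLA glands, against 23024, 26017 and 23656 in control glands, and their part in the values of Mmp14 and Mmp2 was not tested.

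Mmp2, the gelatinase that cuts type IV and denatured collagen, had 1714, 1946, 3199 and 1499 in CLA glands, against 1127, 1569 and 1805 in control glands. The groups overlapped and CLA replicate 3 stood highest, also on the second probe set, 1439364_a_at, where it reached 3035. Its log2 change was 0.44 ± 0.27 (SE) on the brightest and 0.50 ± 0.28 on the second probe set, with limma's adjusted p at 0.931 and 0.991. On the brightest it was 0.22 without CLA replicate 3 and 0.25 without control replicate 1.

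Mmp9, the second gelatinase and a product of neutrophils and macrophages, was dim. Its brighter probe set had 6.26, 71.8, 29.3 and 77.1 in CLA glands, against 114, 99.5 and 62.6 in control glands, and the groups overlapped. In the fit without the filter its log2 change was -1.49 ± 0.81 (SE), at limma's adjusted p of 0.948, and its other probe set had -0.95 ± 0.81 over all probe sets. On the brighter one it was -0.71 without CLA replicate 1, the dimmest gland, -0.93 with array weights, and -0.98 and -0.54 with pseudocounts of 16 and 64. The same change was -4.18 between the 27 arrays and -0.53 among the 28 arrays. Of the 8 neutrophil markers with a probe set, 5 (Camp, Cxcr2, Elane, Mpo and Ngp) were below the filter too, and the summed signal of the 8 spanned 2250.4 to 6880 in CLA glands and 2982 to 7239 in control glands.

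Mmp12, the macrophage elastase, which cuts elastin, had the third smallest p of the family. Its signal was 112, 289.7, 186 and 272 in CLA glands, against 107, 142 and 82.2 in control glands. CLA replicates 2 to 4 lay above all control glands and CLA replicate 1 among them. Mmp12 had a log2 change of 0.90 ± 0.36 (SE), 1.87-fold (95% interval 0.09 to 1.72), at limma's unadjusted p of 0.0336 and adjusted p of 0.878. That change was 0.07 between the 27 arrays and 1.18 among the 28 arrays. Macrophage markers, all 10 above the filter, summed to 22041, 24528, 27621 and 21637 in CLA glands, against 19495, 24693 and 20352.5 in control glands, and their part in the Mmp12 values was not tested. Of these 10 markers 8 had a positive log2 change, while Cd163, a scavenger receptor of macrophages, had -1.06 at limma's unadjusted p of 0.00166 and adjusted p of 0.576, with lower CLA signal and no overlap. The log2 change of Mmp12 was 0.33 ± 0.51 with the muscle marker score as a covariate and 1.67 ± 0.73 with the white adipocyte score. Both scores differed with diet, so these values are a description.

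Mmp13, the main interstitial collagenase of mice, had signals on both sides of the filter, at 59.2, 123, 258 and 72.3 in CLA glands, against 37.0, 81.3 and 49.3 in control glands. CLA replicates 2 and 3 lay above all control glands, and CLA replicates 1 and 4 within their range. At 1.03 ± 0.52 (SE), its log2 change was the highest of the 9 tested members, with limma's adjusted p at 0.904. Without CLA replicate 3 it was 0.61, with a pseudocount of 64 it was 0.59, and with the white adipocyte score as a covariate 0.34 ± 1.11.

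Mmp3, stromelysin 1, which cuts proteoglycans and laminin and activates other pro-MMPs, varied more within the groups than between them. It had 594, 525, 851 and 207 in CLA glands, against 159, 614 and 457 in control glands. On the log2 scale the change was 0.45 ± 0.54 (SE), at limma's adjusted p of 0.994. Between the 27 arrays it was 1.90 and among the 28 arrays -0.23, and without control replicate 1, the lowest gland, it was -0.13. In the fit with the muscle score, which was lower on CLA replicates 2 to 4 than in any control gland, it was 1.48 ± 0.69.

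Mmp11, stromelysin 3, known from fibroblasts that surround carcinoma cells, showed the smallest difference. Its signal was 80.8, 206, 216 and 93.5 in CLA glands, against 66.7, 148 and 217 in control glands, so that low and high glands occurred on either diet. Its log2 change was 0.07 ± 0.49 (SE; 95% interval -1.03 to 1.16), with limma's adjusted p at 0.999, and its sign changed without control replicate 1 (-0.41), CLA replicate 2 (-0.13) or CLA replicate 3 (-0.16).

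Single arrays stood low or high for several members at once. Control replicate 1 had the lowest signal for 6 of the 9 tested members, among them Mmp2, Mmp3 and Mmp14, and CLA replicate 3 had the highest for 4. White adipocyte markers separated the groups, and their score nearly followed diet. It was 0.73 to 1.00 in control glands, -0.98 to -0.89 on CLA replicates 1 to 3 and 0.27 on CLA replicate 4. A fit with this score thus leans mainly on CLA replicate 4 to tell score from diet, and its values are a description. With this score as a covariate the log2 change was -0.17 ± 0.53 (SE) for Mmp2, -1.25 ± 0.98 for Mmp3 and -0.30 ± 0.33 for Mmp14. It was 0.54 ± 0.24 for Timp2 and 0.84 ± 0.32 for Timp3. With the muscle score in its place it was 0.35 ± 0.18 for Timp2, 0.48 ± 0.25 for Timp3, 0.76 ± 0.29 for Mmp14 and, below the filter, -3.50 ± 0.88 for Mmp9. The muscle score was 0.88 to 4.14 in control glands, -3.32 to -1.38 on CLA replicates 2 to 4 and 1.36 on CLA replicate 1. Telling this score from diet thus leans in part on CLA replicate 1, where Mmp9 was dimmest (6.26), and these values are a description too. No member passed an adjusted p of 0.05 in the fit with either score.

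**Figure D4:**
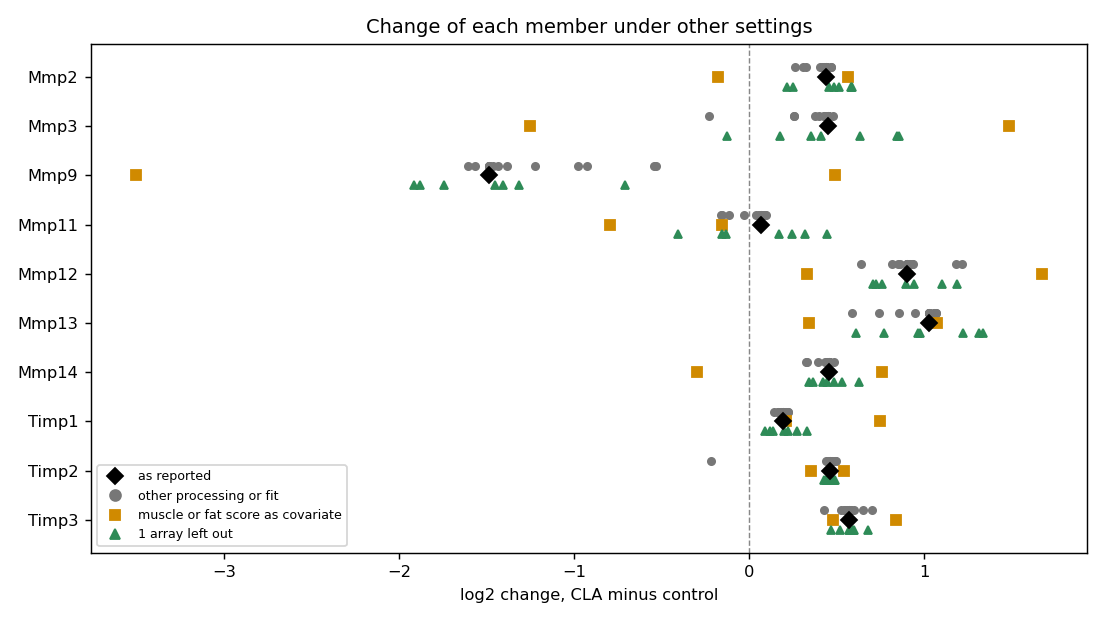
Log2 change, CLA minus control, of each member as reported (diamond), under other processing or fits (circles), with the muscle or white adipocyte marker score as a covariate (squares) and with 1 array left out (triangles). Timp3, Mmp12, Mmp13 and Timp1 keep a positive sign in all, Timp2 except as the mean of its probe sets (-0.22), and Mmp2, Mmp3, Mmp9, Mmp11 and Mmp14 lie on both sides of 0.

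Among other genes of the pathway, 71 of 97 listed genes were tested, and limma called 0 at an adjusted p under 0.05 in either direction. At an unadjusted p under 0.05, 3 of the 71 were higher and 0 lower, beside 2.38% and 3.01% of all genes, and the median log2 change was 0.12, beside 0.03 over all genes. The groups did not overlap for 6 of the 71 with higher CLA signal and for 1 with lower, beside 2.64% and 2.67% of all genes. Single genes of these lists are named for having the smallest p of their list, so their separation is a description. Of the 5 other MMPs tested, 4 had a negative change and the median was -0.26. Mmp23, a membrane-anchored MMP, had 174, 148, 212 and 175 in CLA glands, against 140.3, 138 and 121 in control glands, without overlap and with a log2 change of 0.41 ± 0.22 (SE). Mmp19 and Mmp24 had -0.58 ± 0.37 and -0.43 ± 0.34, and both overlapped.

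The ADAM and ADAMTS proteases, relatives of the MMPs that shed membrane proteins or cut proteoglycans, numbered 15 tested genes with a median log2 change of 0.20, 10 of them positive. The aggrecanase genes Adamts4 and Adamts5 had opposite signs, at 0.57 ± 0.27 (SE) and -0.40 ± 0.20. Adamts5 signal was 307, 272, 346 and 343 in CLA glands, against 358, 387 and 524 in control glands, without overlap. Adam8, a leukocyte sheddase, had 0.38 ± 0.20, also without overlap.

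Activators and controllers of pro-MMPs had a median of 0.09 over 17 tested genes, 9 positive and 8 negative. A2m, which encodes the protease trap alpha-2-macroglobulin, had 1.42 ± 0.72 (SE), but -0.76 between the 27 arrays and 2.42 among the 28 arrays. Its signal was 76.7, 113, 284 and 61.8 in CLA glands, against 129, 16.6 and 33.0 in control glands. A2m passed the filter through the CLA glands, with a mean log2 signal of 6.79 there and 5.37 in control glands, beside a cut of 5.85. Ctsk, a collagen-cutting cathepsin, and Serpinf1, which encodes the secreted serpin PEDF, had 0.48 ± 0.26 and 0.26 ± 0.14. Matrix substrates had a median of 0.21 over 20 tested genes, 15 positive. The smallest p among them belonged to the matrix glycoprotein genes Tnc (0.59 ± 0.22) and Fn1 (0.56 ± 0.22), at limma's adjusted p of 0.855 and 0.878, followed by Lama5, a laminin chain of basement membranes, at -0.52 ± 0.27.

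Transcription factors and cytokines that induce MMP genes had a median of 0.02 over 14 tested genes, 7 positive and 7 negative. Il1r1, the receptor of interleukin 1, had 190.2, 228, 269 and 286 in CLA glands, against 149.7, 164 and 149.2 in control glands. Its ligand gene Il1b had 247, 209.6, 166 and 203 in CLA glands, against 147, 155 and 145 in control glands. The AP-1 subunit gene Jun had 3313, 2954, 2769 and 2921 in CLA glands, against 2741, 2595 and 2536 in control glands. These 3 of the 14, which have the smallest p of this list, separated the groups with higher CLA signal, as 2.64% of all genes did, with log2 changes of 0.64 ± 0.22, 0.46 ± 0.22 and 0.19 ± 0.12 (SE) and limma's adjusted p at 0.797, 0.904 and 0.937.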

How the data were processed

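Total RNA of each gland was biotin-labelled and hybridised to a 1-colour Affymetrix array, per the labels' protocols. What the authors deposited are linear MAS5 intensity values (MAS5 is named in the submitters' processing notes), already scaled to a common trimmed mean. The MAS5 version, a genome build or an annotation were not stated in those sources. Before taking log2, values under 1 were raised to 1. Of 45101 probe sets, 64 were controls, 932 named several genes and 9160 none; all were left out. Symbols of 34741 probe sets were looked up by Entrez identifier in the RefSeq table of GRCm38.p6. The probe set of highest mean log2 signal represented its gene, and 12497 of 18193 genes, those reaching the 40th percentile of all probe sets in mean signal (57.7), were tested. Limma 3.58.1 in R 4.3.3 fitted the difference between CLA and control (eBayes with trend, no covariates, two-sided, Benjamini-Hochberg over all genes, threshold 0.05). Other probe sets come from a fit over all 34945, and Mmp9 from the fit without the filter. The fit was tested on simulated data.

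Groups came from the diet in the labels, and replicates are numbered in accession order. Each array is taken as a separate mouse since its label speaks of a mouse. The members and lists were chosen with earlier results of these data known. Named genes were all members and the 3 tested genes of smallest p of each pathway list. Marker scores are means over tested markers of log2 signal minus the mean of each over the 7 arrays. Alternatives were other normalizations, pseudocounts, filters, probe set choices, eBayes settings, array weights, the title number, covariates and left-out arrays. Plots used matplotlib 3.10.9 (Python 3.11.15).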

Additional observations from a re-analysis of the deposited data

How the results depend on the processing

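No paired analysis was possible because the labels give the mice no shared replicate numbers. No member passed an adjusted p of 0.05 under any alternative run, and the lowest adjusted p was 0.121, for Timp2 and for Timp3 with array weights. Over all genes the number past the threshold was 3 with array weights and 1 among arrays with title numbers starting with 28, and it ran from 0 to 17 with an array left out, 17 without CLA replicate 4 and 2 without control replicate 1. At an unadjusted p under 0.05 it was 674 of 12497 genes as reported and 1945 with array weights. Over all probe sets it was 1726, there out of 34945. Over the genes it was 1227 within title numbers starting with 28 and 300 with the muscle score. It was 1380 when control replicate 1 was left out, 380 when control replicate 2 was and 430 when CLA replicate 2 was. Of members, 3 were at that level as reported (Timp2, Timp3 and Mmp12), 5 with array weights (these and Mmp13 and Mmp14), 1 as means of probe sets (Mmp12) and 1 of the tested members with the muscle score, Mmp14, which is not among the 3.

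Signs turned as follows. Mmp11 was -0.15 with array weights, -0.031 with the title number as a block, -0.16 within title numbers starting with 28, -0.15 with the muscle score, -0.80 with the white adipocyte score and -0.12 with the 3′ to 5′ ratio, and ran from -0.41 to 0.44 with an array left out (-0.16 without CLA replicate 3, over all probe sets too). Mmp3 was -0.23 within title numbers starting with 28 and -1.25 with the white adipocyte score, and ran from -0.13 to 0.86 with an array left out. With the white adipocyte score, which nearly followed diet, Mmp2 was -0.17, Mmp14 -0.30 and Mmp9 0.49. Timp2 was -0.22 as the mean of its probe sets, and its probe set 1433662_s_at 0.015 with the 3′ to 5′ ratio and 0.0066 without CLA replicate 3. Mmp12, Mmp13, Timp1 and Timp3 kept their sign under all. The cause of these shifts was not tested.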

Other observations

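Of the other family genes, 7 were below the signal filter, so their sizes are uncertain, and the 4 given here were singled out after their values were seen because their groups did not overlap. Of the 7, 1 separated with higher and 3 with lower CLA signal, beside 2.24% and 3.21% of all probe sets. Timp4, an inhibitor known from heart and fat, had 11.6 to 42.5 in CLA glands and 69.7 to 138 in control glands, with a log2 change of -1.60 ± 0.56 (SE) and limma's adjusted p at 0.857 in the fit without the filter. White adipocyte markers were lower in CLA glands too. Within the CLA glands Timp4 was lowest on replicate 4, at 11.6 beside 35.7 to 42.5 on the others. On that array the adipocyte sum was the highest of the CLA glands, at 39685 beside 17634 to 21077. The part of adipocytes in the Timp4 values was not tested. Mmp10, stromelysin 2, had 3.88 to 40.1 in CLA glands and 42.3 to 60.4 in control glands, a log2 change of -2.15 ± 0.89. Mmp1a had 15.1 to 37.6 in CLA glands and 3.31 to 14.1 in control glands, a log2 change of 1.53 ± 0.70, and the related Mmp1b 1.24 to 6.34 in CLA glands and 8.32 to 26.5 in control glands, a log2 change of -2.34 ± 0.85. None passed an adjusted p of 0.05.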
